A study of Homo sapiens with 6 samples.

Results

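The glypicans and syndecans are the main families of heparan sulfate proteoglycans that sit on the cell surface. The 10 human genes that encode them, GPC1 to GPC6 and SDC1 to SDC4, were chosen by symbol, and all 10 were among the 25369 genes of the files. Poly(A) RNA was sequenced in bulk from Caki2, a cell line of clear-cell renal cell carcinoma (ccRCC) that lacks PBRM1 protein, a subunit of the PBAF chromatin remodeling complex. The 3 Caki2+Vector samples carried an empty doxycycline-inducible lentiviral vector, and the 3 Caki2+PBRM1 samples carried that vector with PBRM1. Both lines were stable lentiviral lines and both were given doxycycline at 2 µg/ml, so neither group is free of vector or drug. The sources used here do not say whether the lines were clones. The study calls replicates A, B and C biological, the labels do not say that they were separate cultures, and p-values measure the spread between these samples.

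A glypican core protein is held on the outer membrane by a glycosylphosphatidylinositol (GPI) anchor, while a syndecan core protein crosses the membrane and has a short tail in the cytoplasm. Both carry heparan sulfate, a long sulfated sugar chain that binds growth factors, morphogens and matrix proteins and presents them to their receptors. By sequence, GPC1, GPC2, GPC4 and GPC6 form one glypican subfamily and GPC3 and GPC5 the other. In kidney, glypican-3 is known from an overgrowth syndrome with renal dysplasia, and syndecan-1 is a typical syndecan of epithelial cells.

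The values are normalized counts, that is, reads on a gene divided by 1 size factor per sample, without division by gene length. Between 7312955 and 10835355 reads per sample lay on genes. Caki2+Vector A stood apart from its group, with a chi-square per degree of freedom of 3.09 and 2.84 against replicates B and C, compared with 1.19 to 1.34 for the other pairs of replicates. PBRM1 itself, the check of the labels, lay between 182.2 and 195.0 normalized counts in Caki2+Vector and between 2431.7 and 2682.4 with the construct, and counts per gene do not separate the endogenous transcript from the construct. Most of 10 renal epithelial and ccRCC markers were present in every sample. Their summed normalized counts ranged from 21003.1 to 22188.9 (Caki2+Vector) and from 20617.3 to 21316.9 (Caki2+PBRM1). Among these 10, PAX8 (1887.7 to 2190.0) and KRT8 (7228.0 to 8811.9) were high and PAX2 (20.4 to 34.0) was low. Of the same 10, CA9, a marker of ccRCC, had 0 to 2.8 normalized counts without and 6.7 to 15.2 with PBRM1, and LRP2 had 0.0 to 3.8 and 5.4 to 15.1. Among those tested, CDH6 was called higher and KRT8 and KRT18 lower, and their part in the results below was not tested. Of 5 endothelial markers none reached 10 normalized counts in any sample, and CDH5 and TEK were at 0 throughout. The 6 fibroblast markers summed to 104.3 to 111.5 in Caki2+Vector, and 101.6 to 129.8 with PBRM1. The 5 leukocyte markers summed to 178.9 to 227.7 and 190.6 to 200.6, nearly all of it ITGAM, with CD3E at 0, and the 4 neural markers to 345.8 to 376.3 and 316.4 to 356.4, nearly all of it MBP.

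GPC4 is the member for which the study lists quantitative PCR primers, and their sequences are shown because they fix the part of the transcript that such a measurement reads. Both matched the reference GPC4 transcript ENST00000370828 (GENCODE, GRCh37) exactly once and matched the main transcript of none of the 9 other members.
GPC4 forward primer: gcaaggtctccgtggtaaacc
GPC4 reverse primer: ccggcagtgggagcagta
GPC4 product, primer sites in capitals: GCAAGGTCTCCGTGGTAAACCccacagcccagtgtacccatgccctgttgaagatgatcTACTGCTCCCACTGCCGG
The product is 77 bases of coding sequence on the minus strand, between positions 132445389 and 132458186 of chromosome X, with an intron between. The forward primer spans the junction of exons 3 and 4, and the reverse primer lies in exon 4.

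Of the 10 genes, 7 had at least 10 normalized counts in at least 3 samples and could be tested, and the other 3 (GPC2, GPC3 and GPC5) were near the limit of detection. GPC4, SDC2, GPC1 and SDC4 were higher in Caki2+PBRM1 and none of the 7 was lower, at an adjusted p under 0.05 (limma on log2(normalized count + 1), Benjamini-Hochberg over all 13303 tested genes). In bulk RNA, a change in the share of cells that express a gene and a change of RNA per cell cannot be told apart. Over all tested genes, 16.2% were called higher and 13.0% lower. The groups did not overlap for these same 4 members, with Caki2+PBRM1 higher each time, where 22.1% of tested genes had separate groups with Caki2+PBRM1 higher and 19.6% with Caki2+PBRM1 lower. With counts recovered from the values, edgeR called 30.1% and DESeq2 19.2% of the genes in either direction, and each called the same 4 members. The median log2 fold change of the 7 members was 0.28, beside -0.004 for all tested genes. Since the members were chosen with earlier results of these data known, these comparisons are a description.

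**Figure D1:**
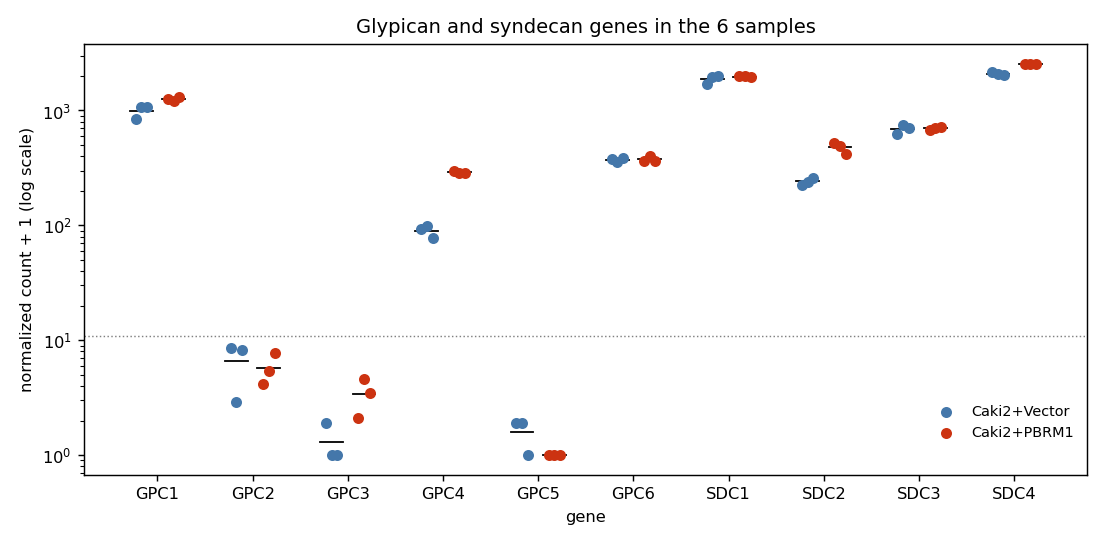
Normalized count + 1 (log axis) of each glypican and syndecan gene in the 3 Caki2+Vector samples (blue) and the 3 Caki2+PBRM1 samples (red); each point is 1 sample, horizontal bars are means, and the dotted line is the level of 10 normalized counts used as the filter. GPC4 and SDC2 show the widest gaps between groups, and GPC2, GPC3 and GPC5 lie under the line in every sample.

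GPC4 (ENSG00000076716) lies on the minus strand of chromosome X of GRCh37, from 132434131 to 132549517. Its product, glypican-4, is a GPI-anchored co-receptor that binds Wnt and fibroblast growth factors and is also released from cells. GPC4 had 91.8, 98.3 and 76.7 normalized counts in Caki2+Vector A, B and C, and 293.5, 287.1 and 287.0 in Caki2+PBRM1 A, B and C. All 3 Caki2+PBRM1 values were far above the highest Caki2+Vector value, and they lay closer to each other than the Caki2+Vector values did. The means were 88.9 ± 11.1 and 289.2 ± 3.7 (SD, n = 3), a log2 fold change of 1.70 (SE 0.101, 95% interval 1.49 to 1.91, adjusted p = 6.77e-14 from limma). The exact permutation test of the counts gave p = 0.1 (two-sided), the smallest that 3 against 3 samples allow. Of all tested genes, 0.511% were called with a log2 fold change as high as that of GPC4 or higher. The study lists PCR primers for GPC4 and describes genes it measured by PCR as identified in its RNA-seq data. For that reason the direction of GPC4 here is not taken as independent evidence.

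GPC3, which encodes glypican-3, is the neighbour of GPC4 on the same strand of chromosome X (132669773 to 133121127), with 120.3 kb between the end of GPC3 and the start of GPC4. It had 1, 0 and 0 reads in Caki2+Vector A, B and C and 1, 4 and 3 reads in Caki2+PBRM1 A, B and C. The read counts of the groups touch at 1, and normalized counts stayed at or under 3.6 in every sample. At this depth no fold can be given for GPC3, and the difference was not tested in the filtered data.

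GPC6 (ENSG00000183098) encodes glypican-6, a close relative of glypican-4 with a role in skeletal growth, and spans chromosome 13 from 93879060 to 95060274. It had 376.8, 358.1 and 384.7 normalized counts in the Caki2+Vector samples and 362.9, 400.0 and 360.1 in the Caki2+PBRM1 samples. The groups overlapped, with the highest value in Caki2+PBRM1 B and the lowest in Caki2+Vector B. The 95% interval of the log2 fold change ran from -0.14 to 0.15 (adjusted p = 0.979 from limma), that is, a ratio between 0.91 and 1.11. Its neighbour GPC5, with 353.1 kb between both genes, had 1, 1 and 0 reads in Caki2+Vector and none in Caki2+PBRM1, where 0 reads allow up to 3 reads or 2.52 to 3.25 normalized counts per library, for counting error only. An antisense gene that overlaps an exon of GPC6, GPC6-AS2, was at 0 in all samples. Another antisense gene over an exon of GPC6, ENSG00000278177, had no values here and could not be checked.

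GPC1 (ENSG00000063660, chromosome 2, 241375080 to 241407493) encodes glypican-1, the most widely expressed glypican of adult tissues and a co-receptor for fibroblast growth factors. Its normalized counts were 845.4, 1072.3 and 1077.5 in Caki2+Vector A, B and C and 1258.6, 1218.6 and 1313.5 in Caki2+PBRM1 A, B and C. Every Caki2+PBRM1 value lay above every Caki2+Vector value, and Caki2+Vector A was the lowest sample by a wide margin. On the log2 scale the fold change came to 0.35 (SE 0.079, limma adjusted p = 0.005). Without Caki2+Vector A it was 0.23 (1.17-fold, adjusted p = 1.80e-05), so the call holds without that library while its size falls from 1.27-fold. GPC2, a glypican of the developing nervous system (chromosome 7, 99767229 to 99775004), had 1.9 to 7.6 normalized counts with 16 reads in each group.

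Among the syndecans, SDC2 (ENSG00000169439, chromosome 8, 97506041 to 97624018) had the widest difference. Syndecan-2 is best known from mesenchymal and endothelial cells, where it takes part in matrix assembly and growth factor signaling. SDC2 had 225.3, 239.0 and 256.5 normalized counts in Caki2+Vector and 525.3, 493.3 and 415.5 in Caki2+PBRM1. The groups were well apart, and the Caki2+PBRM1 replicates were the more scattered. The means were 240.3 ± 15.6 and 478.0 ± 56.5 (SD, n = 3), with a log2 fold change of 0.98 (SE 0.081, 95% interval 0.82 to 1.15, adjusted p = 2.03e-10 from limma). Of all tested genes, 1.89% were called with a change as high or higher. Leaving out a single sample kept the log2 fold change of SDC2 between 0.913 and 1.082.

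SDC4 (ENSG00000124145, chromosome 20, 43953928 to 43977064) encodes syndecan-4, which joins integrins in focal adhesions and binds protein kinase C alpha. It was the member with the most reads per length in every sample. Its normalized counts were 2149.9, 2069.0 and 2033.9 in Caki2+Vector and 2518.4, 2513.6 and 2559.0 in Caki2+PBRM1. The difference was modest in size and wide beside the scatter within either group. With a 95% interval of 0.20 to 0.36, the log2 fold change of SDC4 was 0.28 (SE 0.04, limma adjusted p = 2.44e-06), a 1.21-fold higher mean. The exact permutation p was 0.1 for SDC4, as for SDC2 and GPC1.

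SDC1, the typical epithelial syndecan (ENSG00000115884, chromosome 2, 20400558 to 20425194), had 1701.2, 1970.8 and 2002.8 normalized counts in Caki2+Vector and 1994.1, 1981.2 and 1943.8 in Caki2+PBRM1. The groups overlapped, and again Caki2+Vector A was the lowest sample. The 95% interval of the ratio was 0.97 to 1.12 (adjusted p = 0.359 from limma). SDC3, a syndecan mostly studied in neurons and muscle (ENSG00000162512, chromosome 1, 31342313 to 31381605), had 621.0, 743.5 and 701.2 normalized counts in Caki2+Vector and 669.4, 703.1 and 721.0 in Caki2+PBRM1. Here too the Caki2+PBRM1 values fell within the range of the Caki2+Vector values, with a ratio between 0.93 and 1.11 (adjusted p = 0.821 from limma). For SDC1, SDC3 and GPC6 changes of the size seen for SDC2 or GPC4 thus lie outside the intervals.

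**Figure D2:**
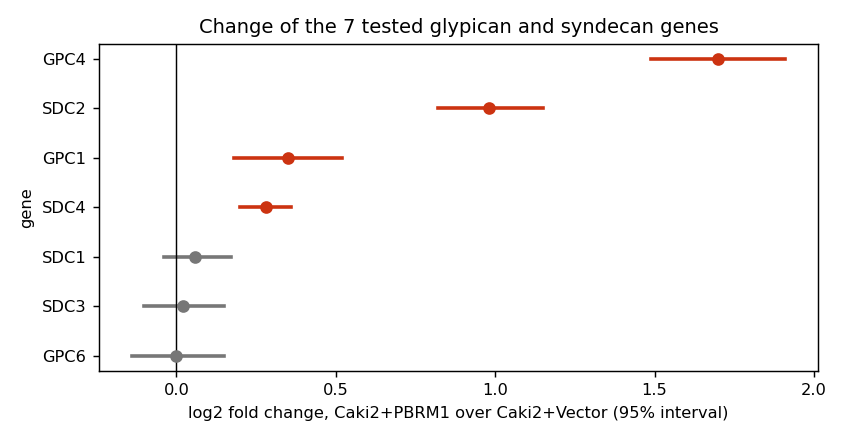
Log2 fold change (Caki2+PBRM1 over Caki2+Vector, x axis) of the 7 tested genes with its 95% interval from limma; red marks an adjusted p under 0.05. The interval of GPC4 (1.49 to 1.91) lies above that of SDC2 (0.82 to 1.15), and those of SDC1, SDC3 and GPC6 include 0.

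Levels of different genes were compared per kb of the main transcript, which runs from 2267 bases for GPC3 to 7121 bases for GPC6. In Caki2+Vector the order of the mean levels was SDC4 (798 normalized counts per kb), SDC1 (598), GPC1 (268), SDC3 (131), SDC2 (72.7), GPC6 (52.4) and GPC4 (17.9), and no neighbours in this order overlapped between samples. In Caki2+PBRM1 SDC4 (968), SDC1 (623) and GPC1 (340) kept their places, and SDC2 (145) and SDC3 (133) followed with overlapping samples. GPC4 came next at 58.3 and GPC6 at 52.6 normalized counts per kb, without overlap. The order was the same when the merged exons of each gene were used as its length. For GPC4 (4959 bases) and GPC6 (7121 bases) both lengths are equal, so that comparison could not change their order. Which transcript forms the cells express was not tested. GPC2, GPC3 and GPC5 were at or under 2.97 normalized counts per kb in every sample.

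The ratio of GPC4 to GPC6 per kb was 0.35, 0.39 and 0.29 in Caki2+Vector A, B and C and 1.16, 1.03 and 1.14 in Caki2+PBRM1 A, B and C. GPC4 made up 4.3% to 6.1% of the summed glypican level per kb in Caki2+Vector, and 12.4% to 13.1% with PBRM1, while GPC1 held 75.2% to 80.2% and 73.6% to 75.9%. GPC1 transcripts thus stayed the most abundant of the glypicans in all 6 samples. Among syndecans, the share of SDC2 was 4.4% to 4.8% in Caki2+Vector, and 6.8% to 8.4% with PBRM1. The level of all 10 genes summed per kb was 1850 to 1990 in Caki2+Vector, and 2320 to 2330 with PBRM1, and glypicans made up 16.4% to 18.2% of it without PBRM1 and at least 19.2% of it with PBRM1. These shares rest on the same counts as the changes above and are given as a description.

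**Figure D3:**
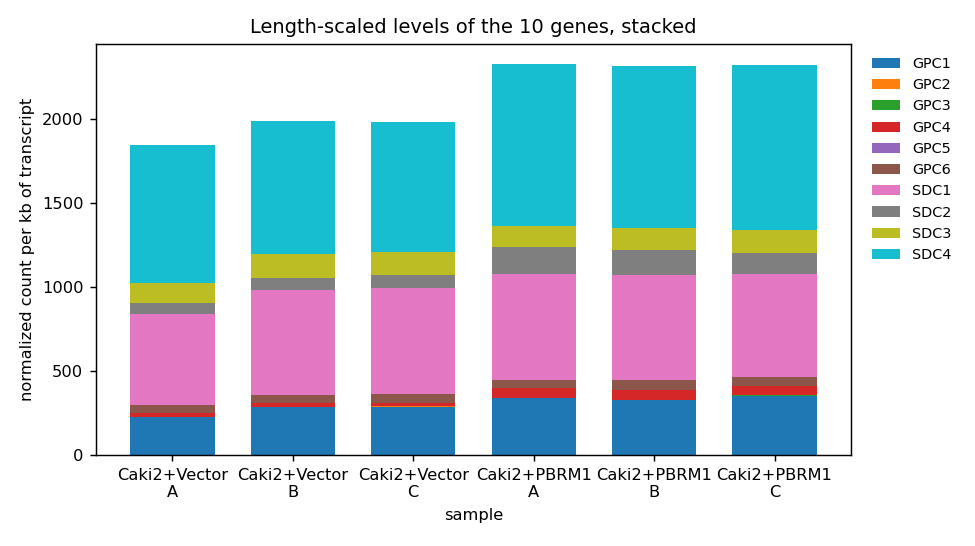
Stacked normalized counts per kb of main transcript (y axis) of the 10 genes in each of the 6 samples (x axis). SDC4 and SDC1 are the thickest layers in every sample, and the whole stack reaches 1850 to 1990 in Caki2+Vector, and 2320 to 2330 with PBRM1.

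Promoter sequence is shown for GPC4 and GPC6, close relatives of which only the first was called. RefSeq windows on GRCh38.p14, from 250 bases before to 50 bases after a gene's start, were found for 8 of the 10 genes (9 windows), and not for SDC2 and GPC3. The 250 bases before the start are printed on the strand of the gene, with the letters GGGCGG and their reverse complement CCGCCC (the GC box) in capitals.
GPC4, chrX:133415490-133415739, minus strand: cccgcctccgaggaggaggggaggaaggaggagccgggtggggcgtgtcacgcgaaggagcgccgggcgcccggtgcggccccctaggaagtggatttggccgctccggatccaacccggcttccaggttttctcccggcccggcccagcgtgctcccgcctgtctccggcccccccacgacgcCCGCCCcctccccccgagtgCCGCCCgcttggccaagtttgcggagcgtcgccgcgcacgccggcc
GPC6, chr13:93226557-93226806, plus strand: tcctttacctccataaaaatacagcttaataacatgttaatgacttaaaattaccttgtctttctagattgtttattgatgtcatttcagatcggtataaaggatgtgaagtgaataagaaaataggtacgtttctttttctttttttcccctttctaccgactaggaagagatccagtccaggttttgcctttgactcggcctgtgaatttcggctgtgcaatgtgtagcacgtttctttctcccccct
The whole GPC4 window held 37 CpG and 2 GC boxes at a GC content of 74.7%. The GPC6 window held 6 CpG and no GC box at 40.0%, with 1 match each to TATAAA and ACGTG on either strand. Over all 35116 windows the median GC content was 58.7% and the median number of CpG 14, and 45.0% held GGGCGG, 11.5% TATAAA and 21.4% ACGTG. Among the other members, the window of SDC3 held 6 GC boxes and both windows of SDC1 held 1 each, neither gene being called, while those of GPC1 and SDC4, which were called, held 4 and 8. GPC2 and GPC5, too low to test, held 3 each. GC content was 84.0% for SDC3 (46 CpG) and 67.7% and 70.7% for SDC1, beside 83.3% for GPC1 and 74.0% for SDC4. A link between promoter sequence and the calls was not tested. The letters CACGTG (7.3% of windows, each also a match to ACGTG) and TGACTCA (4.9%) were in none of the 9 windows.

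The chains that these core proteins carry are built by enzymes of the Golgi. Of 38 genes in 3 lists (linkage and polymerisation, sulfation and epimerisation, chain editing and core release), 29 could be tested. Of these 29, 15 were higher and none lower in Caki2+PBRM1 (16.2% and 13.0% over all tested genes). Because the lists were chosen with earlier results of these data known, these counts are given as a description. The lists also hold genes that do not act on heparan sulfate alone, and FURIN, a protease, is among the 15. DESeq2 on recovered counts called 12 higher, edgeR called 15, and 13 were called where every sample had to reach 10 normalized counts. That last filter left HS6ST2 and HS3ST1 untested. Leaving out a single sample gave between 10 (without Caki2+PBRM1 A) and 15, and 13 remained without Caki2+Vector A. The median log2 fold change of the 29 was 0.19.

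In the list for the linkage region and chain polymerisation, 6 of 10 tested genes were higher and none lower (16.2% and 13.0% over all tested genes). XYLT1 and XYLT2 encode the xylosyltransferases that start a chain on the core protein. XYLT1 rose from 18.0 ± 4.9 to 35.0 ± 2.7 normalized counts (SD, n = 3) with a log2 fold change of 0.95 (adjusted p = 0.00222 from limma), and XYLT2 from 306.2 ± 39.8 to 396.4 ± 13.0 with one of 0.38. B4GALT7, which adds the next sugar, also had a log2 fold change of 0.38 (adjusted p = 2.04e-04 from limma). B3GALT6, for the following step, was called at 0.32 (adjusted p = 0.0368 from limma), and without Caki2+Vector A this was 0.15 (adjusted p = 0.158). The call of B3GALT6 was also lost without Caki2+PBRM1 A, B or C (adjusted p = 0.142, 0.0706 and 0.0678, limma) and with DESeq2 (0.0671). The polymerases EXT1 and EXT2, which were higher by 1.15-fold and 1.14-fold, lost their call without Caki2+PBRM1 A, with an adjusted p of 0.0535 and 0.099 (limma), and DESeq2 gave 0.0519 for EXT2.

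In the list for sulfation and epimerisation, 7 of 15 tested genes were higher and none lower (16.2% and 13.0% over all tested genes). HS6ST2, for a 6-O-sulfotransferase, had 12.3, 7.6 and 7.2 normalized counts in Caki2+Vector and 44.4, 40.9 and 43.6 in Caki2+PBRM1 (log2 fold change 2.17, SE 0.254, adjusted p = 8.87e-08 from limma). It passed the filter only through the Caki2+PBRM1 samples, since 1 Caki2+Vector sample reached 10, and it is no support for the count. Its relative HS6ST3 was far more abundant in counts and rose by 1.35-fold, from 714.4 ± 27.3 to 963.5 ± 18.8 (SD, n = 3). The 3-O-sulfotransferases HS3ST1 and HS3ST3A1 had log2 fold changes of 1.00 and 0.42 (adjusted p = 0.00918 and 5.67e-04 from limma). HS3ST1 rested on 14.2 ± 5.0 against 29.1 ± 8.8 normalized counts (SD, n = 3), and its adjusted p was 0.0579 without Caki2+PBRM1 A and 0.0808 without Caki2+PBRM1 B. Its Caki2+Vector values were 8.5, 16.1 and 18.0. HS3ST1 thus also passed the filter only with Caki2+PBRM1 samples and is no support for the count. HS6ST1 was called at 0.29 (adjusted p = 0.0343 from limma) although its groups overlapped, and without Caki2+Vector A its adjusted p was 0.152. The call of HS6ST1 was also lost without Caki2+Vector B (0.0957) and without Caki2+PBRM1 A, B or C (0.0549, 0.125 and 0.105, limma). DESeq2 did not call it either (0.122). The N-deacetylase NDST1, which opens the sulfation sequence, ranged from 1344.8 to 1434.2 normalized counts without PBRM1 and from 1342.1 to 1409.2 with it, so the groups overlapped.

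Of the genes for editing of chains and release of core proteins, 4 of 7 were tested, and SULF2 and FURIN were higher and none lower. Over all tested genes 16.2% were called higher and 13.0% lower, and 4 genes are too few to compare with these shares. SULF2, which removes 6-O-sulfates outside the cell, had 473.3, 527.2 and 455.5 normalized counts in Caki2+Vector and 740.9, 775.1 and 760.4 in Caki2+PBRM1. The groups were apart by a log2 fold change of 0.65 (SE 0.061, limma adjusted p = 1.19e-09). FURIN, a protease that cuts some glypican cores, had a log2 fold change of 0.56 (adjusted p = 6.61e-08 from limma). NOTUM, a lipase known to act on glypicans and Wnt proteins, had at most 2.5 normalized counts. Of the 5 subunits of the GPI transamidase, which attaches the anchor of glypicans and other proteins, only PIGU was called, at a log2 fold change of -0.20 (adjusted p = 0.0156 from limma), and it lost the call without Caki2+Vector B, Caki2+PBRM1 A or Caki2+PBRM1 C (adjusted p = 0.0611, 0.0543 and 0.106) and with DESeq2 (0.064). Without Caki2+Vector A, PIGK was also called higher and PIGT lower. The 5 subunits, too, are too few to compare with the 16.2% higher and 13.0% lower over all tested genes.

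**Figure D4:**
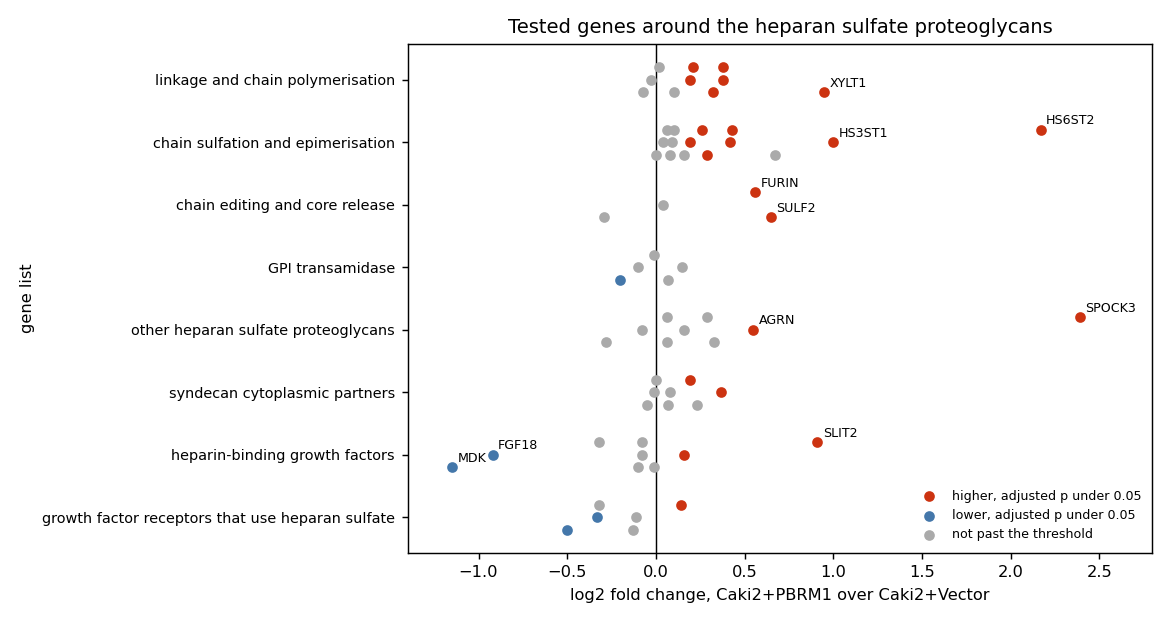
Log2 fold change (Caki2+PBRM1 over Caki2+Vector, x axis) of tested genes in 8 lists around the heparan sulfate proteoglycans (y axis, with small vertical offsets to part the points); red and blue mark genes past an adjusted p of 0.05 and grey the rest, and called genes beyond 0.5 on the log2 scale are named. The top 3 lists hold 15 red points and no blue point, and both lower lists of growth factors and receptors hold 2 blue points each. Over all tested genes 16.2% were called higher and 13.0% lower, and the lists were chosen with earlier results of these data known.

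Among 9 other heparan sulfate proteoglycans, AGRN and SPOCK3 were called higher and none lower, a count near that over all tested genes (16.2% and 13.0%). AGRN, which encodes the basement membrane protein agrin, had 3848.3, 5005.4 and 4966.8 normalized counts in Caki2+Vector A, B and C and 6731.9, 6745.4 and 6672.4 in Caki2+PBRM1 (log2 fold change 0.55, SE 0.105, adjusted p = 0.0103 from limma). Without Caki2+Vector A, the lowest sample, its log2 fold change was 0.43. SPOCK3 had 0.9, 2.8 and 1.2 normalized counts in Caki2+Vector and 11.9, 14.2 and 10.9 in Caki2+PBRM1, too few in Caki2+Vector for a fold. SPOCK3 passed the filter only through the Caki2+PBRM1 samples, so its call is no support for the list. HSPG2, for perlecan, had a log2 fold change of 0.33 (adjusted p = 0.0576 from limma), and edgeR gave an adjusted p of 3.53e-05. Without Caki2+Vector A, HSPG2 was at 0.21 with an adjusted p of 2.44e-09. CD44, which carries heparan sulfate in some splice forms, and COL18A1, for the collagen XVIII chain, did not pass the threshold, although edgeR called COL18A1 (adjusted p = 0.0177).

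Of the listed cytoplasmic partners of syndecans, not all of which bind the tail directly, 8 of 9 were tested. Of these, 2 were called, both higher, near the 16.2% over all tested genes. CASK, a scaffold protein, rose from 803.5 ± 8.7 to 1040.7 ± 22.8 normalized counts (SD, n = 3, log2 fold change 0.37, adjusted p = 7.07e-07 from limma). PRKCA, the kinase that syndecan-4 binds, had a log2 fold change of 0.19 (adjusted p = 7.95e-04 from limma). SDCBP, for syntenin, had one of 0.08 (adjusted p = 0.103 from limma). Without Caki2+Vector A, SDCBP was called higher, and GIPC1 and ACTN4 were called lower at log2 fold changes of -0.12 and -0.06.

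Of 15 heparin-binding growth factors, which are ligands of heparan sulfate, 9 were tested, with 2 called higher, 2 lower and 5 not called, near the shares over all tested genes (16.2% higher and 13.0% lower). MDK, for the growth factor midkine, had 361.6, 327.8 and 356.0 normalized counts in Caki2+Vector and 161.4, 155.5 and 151.1 in Caki2+PBRM1, with no overlap (log2 fold change -1.15, SE 0.082, adjusted p = 3.58e-12 from limma). FGF18 fell by 0.92 on the log2 scale, from 48.6 ± 10.2 to 25.2 ± 5.8 (SD, n = 3). SLIT2, a guidance protein that binds glypican-1, rose from 43.2 ± 8.6 to 80.9 ± 6.7 normalized counts (SD, n = 3, adjusted p = 6.90e-05 from limma). VEGFA had a log2 fold change of 0.16 (adjusted p = 0.0154 from limma) and lost its call without Caki2+PBRM1 B or C (adjusted p = 0.0624 and 0.0749) and with DESeq2 (0.0583). FGF2, the best studied ligand of this kind, had one of -0.08 (adjusted p = 0.195 from limma).

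All 6 receptors of the list were tested, with 1 called higher and 2 lower, beside 16.2% and 13.0% over all tested genes. FGFR1 and FGFR2, whose binding of fibroblast growth factors needs heparan sulfate, were lower in Caki2+PBRM1. FGFR1 changed from 1402.5 ± 109.0 to 1113.5 ± 37.4 normalized counts (SD, n = 3, log2 fold change -0.33, adjusted p = 1.25e-05 from limma) and FGFR2 from 131.1 ± 13.0 to 92.6 ± 8.4 (log2 fold change -0.50, adjusted p = 0.00182). MET, the receptor of hepatocyte growth factor, was higher by 1.10-fold (adjusted p = 7.50e-04 from limma). FGFR3, FGFR4 and FGFRL1 had log2 fold changes between -0.32 and -0.11 and did not pass the threshold, and without Caki2+Vector A, FGFR4 (-0.18) and FGFRL1 (-0.19) were called lower as well.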

How the data were processed

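Per the labels and the study's methods, the authors removed adapters, poor reads and rRNA reads, aligned the rest to hg19 with STAR, counted reads on UCSC genes with HTSeq and normalized with DESeq2 (versions not given in the sources used here). The deposited values are a signal per gene: reads divided by a size factor (0.8343 to 1.1915), not by length. All values (100.0%) were whole multiples of the smallest step within 0.01, which gave back whole reads. Kit and counting strand were not given, so antisense reads cannot be told apart.

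The 13303 genes that reached 10 normalized counts in 3 or more samples were put on the scale log2(normalized count + 1) and tested with limma 3.58.1 (trend, robust) in R 4.3.3, with all 6 samples, no covariates, and an adjusted p under 0.05. Fold changes are on this scale, which understates low genes. Exact permutation tests used scipy 1.17.1. The 95% intervals are limma's. In data simulated for this comparison, limma recovered 184 and edgeR 185 of 200 genes changed by 1 on the log2 scale, with 9 false calls each, among 13303 genes. Smaller changes, such as those of GPC1 and SDC4, were not simulated, nor was a library that stands apart as Caki2+Vector A did. The 200 changed genes are also far fewer than the 2152 higher and 1734 lower genes called in the real data. Recovery and false calls may therefore differ there. Alternatives were edgeR 4.0.16, DESeq2 1.42.0 and voom on recovered counts, TMM and quantile scaling, other filters and pseudocounts, a replicate block and leaving out each sample.

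The gene lists were written by hand from general knowledge, and the members and lists were chosen with earlier results of these data known. Named genes are all members and, from each other list, up to 4 called genes with the largest change; further genes named (EXT1, EXT2, HS6ST1, NDST1, NOTUM, HSPG2, CD44, COL18A1, SDCBP, GIPC1, ACTN4, PIGK, PIGT, FGF2, FGFR3, FGFR4, FGFRL1, GPC6-AS2 and the uncalled marker genes) were chosen after their values were seen. Coordinates and lengths come from GENCODE v44 lifted to GRCh37, the build of hg19, matched by symbol. The result of 1 marker gene is not reported here.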

Additional observations from a re-analysis of the deposited data

How the results depend on the processing

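The 4 calls among the members (GPC1, GPC4, SDC2 and SDC4) held in all alternatives run, and no tested member was called lower in any. Without the filter on low counts GPC3 was also called higher (adjusted p = 0.0342, limma) on 9 reads in all. Counts over all genes moved most for lower genes, from 1734 to 1057 with DESeq2 on recovered counts and to 1025 at an adjusted p under 0.01. Quantile normalization turned the balance of calls, with 1938 genes higher and 2083 lower against 2152 and 1734. With each sample left out, GPC6 ran from -0.045 to 0.030, SDC1 from -0.010 to 0.108 and SDC3 from -0.050 to 0.080 on the log2 scale, crossing 0. GPC1 ran from 0.232 (without Caki2+Vector A) to 0.407, GPC4 from 1.596 to 1.773 and SDC4 from 0.263 to 0.303. Called genes ranged from 1649 to 2252 higher and from 1207 to 1918 lower. With 2 samples left in a group, the spread is pooled over both groups.

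Deviations from the group means of same-lettered samples correlated at -0.008 to 0.014 across genes, so the letters were not taken as pairs. With the replicate block 4 members, 15 genes of the 3 heparan sulfate lists, and 2249 higher and 1858 lower genes in all were called. Depth limits GPC2, GPC3 and GPC5, which had 0 to 8 reads per sample.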
